A study of Mus musculus with 8 samples.

Results

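The genes described here are the proteasome subunit genes of the mouse, with the activators, inhibitor and assembly chaperones that share their names. They are the 48 of 49997 genes in the count table whose symbol begins with Psm, a letter from a to g and a number. The interferon-inducible subunits Psmb8, Psmb9 and Psmb10 and the pseudogenes were left out by this rule. The rule itself reads names and no measured value, but this gene group was picked with earlier results of these data known. Of the 48 members, 16 encode the core particle (8 of the alpha ring and 8 of the beta ring) and 17 the regulatory particle (6 ATPases and 11 non-ATPase subunits). A further 6 encode other activators or an inhibitor and 7 encode assembly chaperones. The names of the other 2, Psmc3ip and Psme3ip1, fit the rule although they are not subunits: they are named for proteins that bind Psmc3 and Psme3.

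The counts came from 8 RNA-seq libraries of EO771, a mouse breast cancer cell line, in 4 groups with 2 libraries each. In 1 comparison cells received vehicle (2% DMSO in saline, replicates 4 and 5) or 100 nM 12-HETE (replicates 4 and 5) for 48 h. 12-HETE is a lipid product of the lipoxygenase ALOX12. In the other, cells carried an empty vector or an ADAR1 p150 overexpression vector (replicates 1 and 2 of each), ADAR1 p150 being the interferon-inducible isoform of an RNA-editing enzyme. The comparisons asked how 12-HETE or ADAR1 p150 changed the transcripts of these cells. The labels do not say whether replicates were separate cultures. The study gives independent experiments for an editing comparison of these conditions, without saying which libraries entered it. The p-values below therefore measure only the spread between these samples, which may be technical.

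The total count per library was between 1101767 and 1537037, and both 12-HETE and both ADAR1 p150 libraries were deeper than their controls. One count was worth 0.703 to 0.913 CPM, where CPM is a count scaled to a common library total after TMM normalization. Adar, the targeted gene, had 2 and 8 counts in the vector libraries against 181 and 140 under ADAR1 p150, as the labels have it. The epithelial markers fixed for the cell line summed to between 201 and 379 counts per library. Nearly all of these came from the keratins, since Cdh1 was at 0 in all 8 and Epcam had only 1 to 4. Leukocyte markers summed to between 0 and 2 counts, endothelial markers to between 1 and 11 and fibroblast markers to between 10 and 59, nearly all from Dcn. In bulk RNA, fewer cells of a type and less RNA per cell cannot be told apart.

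The proteasome is the main protease of the cytosol and nucleus. Its core particle is a barrel of stacked alpha and beta rings, and the beta subunits inside hold the proteolytic sites. The regulatory particle caps the barrel, where its non-ATPase subunits bind ubiquitin-tagged proteins and remove the tag, and its ring of ATPases unfolds the substrate and threads it into the core. The peptides it releases are also the main source of those shown on MHC class I molecules. In mammals, transcription of the subunit genes is known to be driven by the factors Nfe2l1 and Nfe2l2 through antioxidant response elements.

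The bases before the annotated start are given for 5 of the 6 members that passed the adjusted p with 12-HETE, all but Psmd3, because these are the promoters of the genes on which that comparison turns. A promoter entry was matched for 40 of the 48 members in RefSeq's GRCm38.p6 annotation, and each sequence is the 100 bases before the start, on the strand of the gene. Capitals mark a CCAAT box on either strand, the one promoter motif searched for that these stretches hold.
Psme3, chr11:101316113-101316212, plus strand: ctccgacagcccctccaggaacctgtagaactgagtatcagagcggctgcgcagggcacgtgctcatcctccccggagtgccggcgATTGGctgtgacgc
Psmc4, chr7:28050093-28050192, minus strand: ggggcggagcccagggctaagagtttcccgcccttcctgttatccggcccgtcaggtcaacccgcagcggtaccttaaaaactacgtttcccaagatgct
Psmd14, chr2:61711594-61711693, plus strand: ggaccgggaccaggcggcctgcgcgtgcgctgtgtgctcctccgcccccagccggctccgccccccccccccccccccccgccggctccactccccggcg
Psmd8, chr7:29180674-29180773, minus strand: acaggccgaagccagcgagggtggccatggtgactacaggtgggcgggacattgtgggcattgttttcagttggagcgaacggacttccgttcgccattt
Psmc3ip, chr11:101095436-101095535, minus strand: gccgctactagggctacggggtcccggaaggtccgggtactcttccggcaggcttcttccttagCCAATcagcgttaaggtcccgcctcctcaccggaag

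Over the whole promoter windows, which run on to just past the start, the core of the antioxidant response element, TGACNNNGC on either strand, was found in 6 of the 40 promoters. These were Psmb5, Psmb6, Psmc6, Psmd9, Psmd12 and Psme4. That is 15% of those members, and 12.4% of all 32851 promoters held it. None of the 6 had enough counts to be tested. CCAAT on either strand was found in 15 members (37.5%) and in 37.4% of all promoters, the members including Psme3, Psmd14 and Psmc3ip. Both shares lay near those of all promoters, and a match of letters is a description and not a site.

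Most of these genes were measured at low counts. Only 17 of the 48 members reached the mean count of 10 over the 8 libraries that was needed for a test. They were 3 of the 16 core subunits (Psma7 of the alpha ring and Psmb4 and Psmb7 of the beta ring) and 11 of the 17 regulatory subunits (Psmc1, Psmc3, Psmc4, Psmc5, Psmd1, Psmd2, Psmd3, Psmd4, Psmd8, Psmd11 and Psmd14). The others were Psme1, Psme3 and Psmc3ip, and none of the 7 assembly chaperones. The remaining 31 members had mean counts from 0 to 9, with a median of 4, and their counts in single libraries ran from 0 to 22. Psma8, a testis alpha subunit, had no count in any library, which allows up to 3 counts in each (2.11 to 2.74 CPM, counting error only). The catalytic subunit Psmb5 had 1 to 4 counts per library. A further 6 members were at 0 in at least 1 library.

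Per kilobase of exon, a scale that allows genes to be compared, the highest mean level over the 8 libraries was that of Psmc3ip, with 21.4 CPM per kilobase. The regulatory ATPases Psmc5 and Psmc3 followed with 14.9 and 10.7, then the ubiquitin receptor Psmd4 with 9.14 and the core subunit Psmb4 with 8.47. The median was 2.15 over the 16 core subunits and 2.94 over the 17 regulatory subunits. On this scale the core subunits ran from 0 (Psma8) to 8.47 and the regulatory subunits from 0.909 (Psmd13) to 14.9. Leaving aside Psma8 and Psmb11, which are known from testis and thymus, the lowest core subunit was Psmb1 with 0.310. With so few counts, and with exon length taken over all annotated transcripts, neighbours in this order were not separated beyond their spread over the libraries. Whether counting used strand is not given in the sources used here, so these levels hold only for the counts as deposited. The exons of Psmc3ip share 385 bases with those of Mlx on the other strand.

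**Figure D1:**
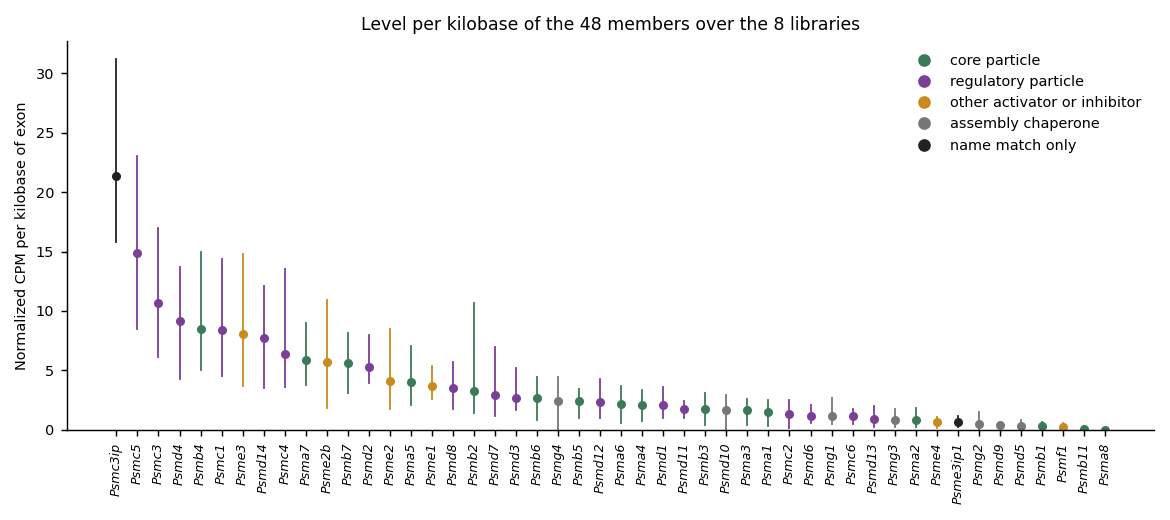
Level of the 48 members in normalized CPM per kilobase of exon, with points for the mean over the 8 libraries and lines from the lowest to the highest library, coloured by class. Psmc3ip, which is not a subunit, is highest at 21.4, the regulatory subunits Psmc5 and Psmc3 follow, and most members lie under 5 with ranges that overlap those of their neighbours.

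Summed over all 16 core subunits, tested or not, the vehicle libraries reached 90.7 and 110 CPM, the 12-HETE libraries 141 and 122, the vector libraries 75.8 and 71.6 and the ADAR1 p150 libraries 96.4 and 75.6. Both 12-HETE libraries were above both vehicle libraries, and the vector and ADAR1 p150 libraries overlapped. As group means these were 100 ± 13.3 with vehicle, 131 ± 13.8 with 12-HETE, 73.7 ± 2.91 with vector and 86.0 ± 14.7 with ADAR1 p150 (SD, n = 2).

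Summed over the 17 regulatory subunits, the vehicle libraries reached 199 and 261 CPM, the 12-HETE libraries 364 and 294, the vector libraries 145 and 204 and the ADAR1 p150 libraries 208 and 152. The order of the groups was that of the core, with 12-HETE above vehicle and no separation of ADAR1 p150 from vector. The group means were 230 ± 44.3, 329 ± 49.8, 174 ± 41.3 and 180 ± 39.8 (SD, n = 2), so 12-HETE stood at 1.31 times vehicle for the core and 1.43 times for the regulatory particle. ADAR1 p150 stood at 1.17 and 1.03 times vector. The separation of 12-HETE from vehicle depended on the scaling: as a share of the whole library, without TMM factors, the regulatory subunits held 0.0203% and 0.0262% of counts with vehicle and 0.0332% and 0.0251% with 12-HETE, which overlap. The core likewise held 0.00926% and 0.0110% against 0.0129% and 0.0104%.

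The balance of the 2 particles varied as much between replicates as between groups. Counts of regulatory subunits were 2.19 and 2.39 times those of core subunits in the vehicle libraries, 2.58 and 2.42 times under 12-HETE, 1.92 and 2.84 times in the vector libraries and 2.16 and 2.01 times under ADAR1 p150. The spread between the 2 vector libraries covered all the other values. Within the core, the alpha ring went from 45.1 ± 0.786 to 59.2 ± 4.02 CPM with 12-HETE and the beta ring from 55.1 ± 12.5 to 72.3 ± 17.8 (SD, n = 2), of which only the alpha ring did not overlap. The ATPases went from 86.1 ± 23.7 to 136 ± 19.3 CPM and the non-ATPase subunits from 144 ± 20.6 to 193 ± 30.5, both without overlap.

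**Figure D2:**
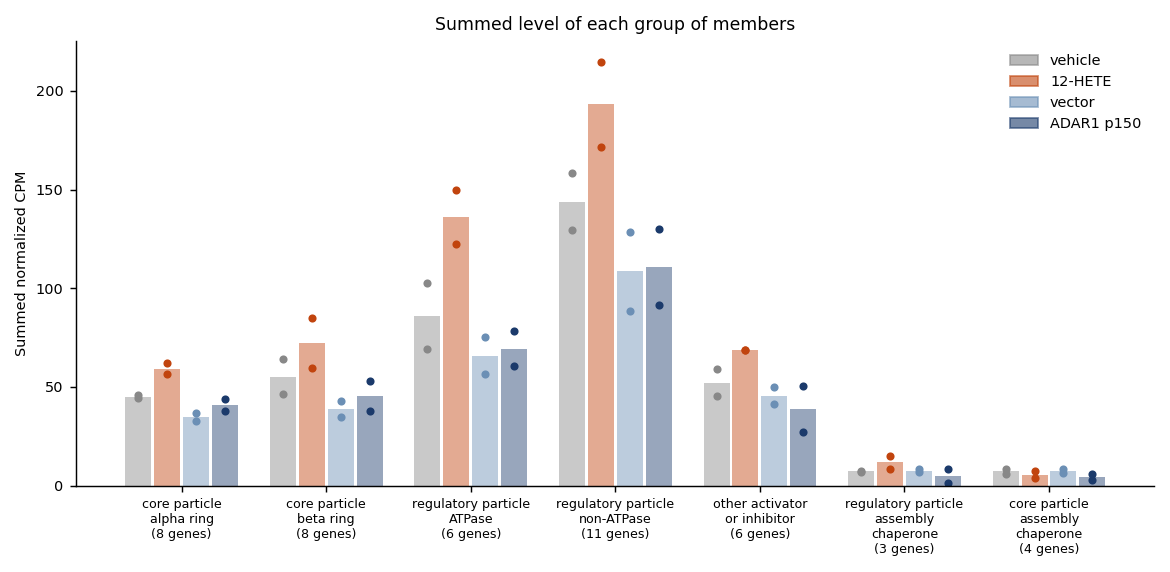
Summed normalized CPM of each group of members, with bars for the mean of the 2 libraries of a group and points for the libraries. The 12-HETE bar is the highest of the 4 in every group of subunits, at 136 CPM against 86.1 with vehicle for the ATPases, and the assembly chaperones lie near the bottom in all libraries.

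With 12-HETE, 4 of the 17 tested members rose at least 2-fold against vehicle: the activator Psme3, the regulatory ATPase Psmc4 and the regulatory non-ATPase subunits Psmd14 and Psmd3. Psmd8, another regulatory subunit, fell by more than 2-fold. A call needed a 2-fold change and an adjusted p under 0.05 (edgeR's quasi-likelihood test, Benjamini-Hochberg over all 6901 genes tested), which took 6.12% of all tested genes as higher and 8.25% as lower. At the adjusted p alone, 5 members were higher (those 4 and Psmc3ip) and 1 lower, beside 15.1% and 14.2% of all genes. At an unadjusted p under 0.05, 7 of 17 members passed, the seventh being Psmc1, beside 39.0% of all genes, so by that measure the members were close to the background. DESeq2 called only Psme3 of the 17 by the same rule, beside 8.55% of all genes, and 4 members at its unadjusted p, beside 24.5%. No core subunit passed. Without vehicle replicate 4, or without 12-HETE replicate 4, only Psmd8 and Psme3 were called, 2 in place of 5.

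Psme3 encodes the nuclear activator that opens the core without ATP or ubiquitin. Its vehicle libraries held 20 and 22 counts, its 12-HETE libraries 58 and 57, its vector libraries 12 and 25 and its ADAR1 p150 libraries 32 and 18. Both 12-HETE libraries stood far above the other 6, and the vector and ADAR1 p150 libraries overlapped. Its normalized level was 17.7 ± 0.799 CPM with vehicle and 42.5 ± 1.61 with 12-HETE (SD, n = 2). The log2 fold change was 1.26 ± 0.29 (SE) with an adjusted p of 0.00113 in edgeR's quasi-likelihood test, and Psme3 kept an adjusted p under 0.05 in all 17 fits made. Some of these fits left out only a vector or ADAR1 p150 library, and there its log2 fold change stayed at 1.26. The promoter stretch of Psme3, printed above, holds an inverted CCAAT box.

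Psmc4 encodes an ATPase of the ring that unfolds substrates. Its vehicle libraries held 9 and 17 counts, its 12-HETE libraries 41 and 25, its vector libraries 9 and 9 and its ADAR1 p150 libraries 20 and 14. The 12-HETE libraries were the highest 2 of the 8 but lay far from each other. The change was 1.14 ± 0.36 on the log2 scale (SE), with an adjusted p of 0.0148 in edgeR's quasi-likelihood test and 0.201 in DESeq2. The adjusted p was 0.213 without vehicle replicate 4 and 0.229 without 12-HETE replicate 4 in edgeR.

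Psmd14 encodes the deubiquitinase of the lid, which cuts the ubiquitin chain from the substrate. Its vehicle libraries held 17 and 21 counts, its 12-HETE libraries 48 and 43, its vector libraries 11 and 27 and its ADAR1 p150 libraries 33 and 25. The vehicle pair and the 12-HETE pair were each tight and well apart, and the vector and ADAR1 p150 libraries overlapped. Psmd14 rose by 1.07 ± 0.31 on the log2 scale (SE), with an adjusted p of 0.00946 in edgeR's quasi-likelihood test and 0.131 in DESeq2. It was 0.0777 without vehicle replicate 4 and 0.0547 without 12-HETE replicate 4 in edgeR.

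Psmd3 encodes a scaffold subunit of the lid. Its vehicle libraries held 11 and 15 counts, its 12-HETE libraries 36 and 24, its vector libraries 11 and 15 and its ADAR1 p150 libraries 14 and 11. The 6 libraries without 12-HETE lay between 11 and 15 counts, and both 12-HETE libraries above them. Psmd3 rose by 1.01 ± 0.36 on the log2 scale (SE), with an adjusted p of 0.03 in edgeR's quasi-likelihood test, 0.276 in DESeq2 and 0.0512 with a replicate block. Leaving out either vehicle library or 12-HETE replicate 4 ended the call, with edgeR adjusted p-values of 0.201, 0.0783 and 0.261.

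Psmd8, also a lid subunit, was the one member that fell. Its vehicle libraries held 19 and 21 counts, its 12-HETE libraries 10 and 7, its vector libraries 11 and 16 and its ADAR1 p150 libraries 11 and 10. The vehicle libraries were the highest of the 8 and the 12-HETE libraries reached no more than 10 counts although they were the deepest. The log2 fold change was -1.41 ± 0.41 (SE), with an adjusted p of 0.00874 in edgeR's quasi-likelihood test and 0.125 in DESeq2, and 0.0801 without 12-HETE replicate 5 in edgeR.

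Psmc3ip, a partner of meiotic recombinases, is no subunit. Its vehicle libraries held 42 and 42 counts, its 12-HETE libraries 79 and 74, its vector libraries 32 and 38 and its ADAR1 p150 libraries 51 and 38. The 12-HETE libraries were again above the other 6. The log2 fold change was 0.67 ± 0.21 (SE), short of 2-fold, with an adjusted p of 0.0153 in edgeR's quasi-likelihood test and 0.206 in DESeq2. Leaving out any 1 of the 4 vehicle and 12-HETE libraries took the adjusted p above 0.05, with edgeR values from 0.0629 to 0.139.

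**Figure D3:**
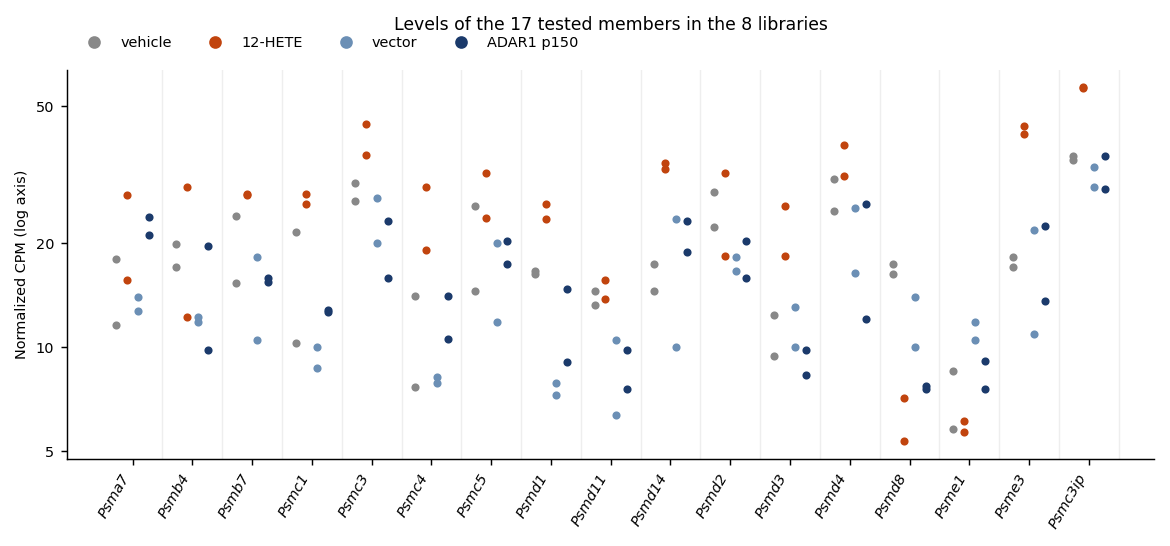
Normalized CPM (log axis) of the 17 tested members in the 8 libraries, with 1 point per library coloured by group. The 12-HETE points of Psme3, Psmd14, Psmd3, Psmc4 and Psmc3ip lie above all other points of those genes, and those of Psmd8 lie below the vehicle points.

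The remaining members named here were those with the most counts among the tested. The ATPase Psmc3 had 31 and 36 counts in the vehicle and 62 and 47 in the 12-HETE libraries, and the groups did not overlap after scaling (log2 fold change 0.51 ± 0.25 SE, adjusted p of 0.133 in edgeR's quasi-likelihood test). The ATPase Psmc5 had 17 and 31 against 45 and 31 counts, which overlapped (0.47 ± 0.31 SE). Neither passed the test. The ubiquitin receptor Psmd4 had 29 and 37 against 54 and 41 counts (log2 fold change 0.33 ± 0.28 SE), and the scaffold subunit Psmd2 had 26 and 34 against 45 and 24 (0.0076 ± 0.30 SE, 95% interval -0.60 to 0.62).

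The core subunits with the most counts were the beta subunit Psmb7, which carries the trypsin-like site, and the alpha subunit Psma7. Psmb7 went from 18 and 29 counts in the vehicle libraries to 39 and 36 under 12-HETE (log2 fold change 0.48 ± 0.31 SE, 95% interval -0.14 to 1.11). For Psma7 they were 21 and 14 against 22 and 36 (0.54 ± 0.35 SE, 95% interval -0.16 to 1.24). The intervals of Psmb7 and Psma7 leave room for more than a doubling. Psmb4, named here as the other core subunit tested, had 20 and 24 counts against 41 and 16, which overlapped. Its log2 fold change was 0.18 ± 0.36 (SE), with a 95% interval of -0.56 to 0.91 that stops short of a doubling. All these intervals hold both 0 and 0.51, the median of the tested regulatory subunits. At this depth a change of that size could not be told from none in the tested core subunits. With no minimum count, the beta subunit Psmb2 passed too. Its counts were 3 and 2 under vehicle against 18 and 7 under 12-HETE, and it is named here after its values were seen.

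Most members lay above 0 with 12-HETE whether or not they passed. The log2 fold change was above 0 in 15 of the 17 tested members, with a median of 0.51 beside 0.0044 over all genes tested. The median was 0.48 over the 3 core subunits and 0.51 over the 11 regulatory subunits. Without vehicle replicate 4 these were 0.32 over all 17, 0.20 in the core and 0.32 in the regulatory particle, and without vehicle replicate 5 the core was at 0.22. In 10 members both 12-HETE libraries were above both vehicle libraries, beside 32.9% of all genes, and in 1 member (Psmd8) both were below, beside 31.2%. Without TMM factors the median of all genes moved by -0.20 on the log2 scale and that of the members went to 0.31. A change of factors moves all genes nearly alike, so the distance between these medians was kept by construction. These medians describe the tested members, which passed a minimum on the mean over all libraries, and not all 48. The members of one complex are not replicates, and no test was made over them.

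**Figure D4:**
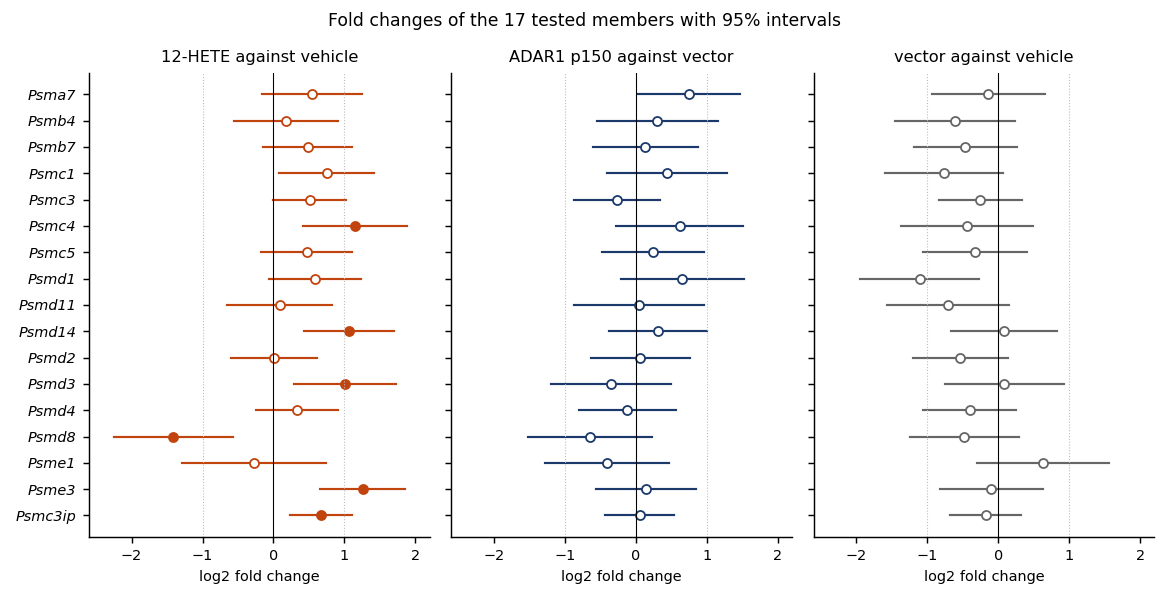
Log2 fold changes of the 17 tested members in 3 comparisons, with lines for the 95% interval of the edgeR fit, filled points for an adjusted p under 0.05 and dotted lines at a 2-fold change. Filled points appear only for 12-HETE against vehicle, 5 above 0 and Psmd8 below, and most points of vector against vehicle lie below 0.

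With ADAR1 p150, no member passed the test against vector. Of the 17 tested members, 0 were higher and 0 lower by the same rule in edgeR's quasi-likelihood test, beside 8.11% and 4.69% of all genes. At the adjusted p alone the count was again 0, beside 14.5% and 11.1%. At an unadjusted p under 0.05 only Psma7 passed, beside 36.6% of all genes, and DESeq2 called 0 members at either p, beside 6.39% of all genes at its adjusted p and 2-fold and 22.2% at its unadjusted p. Psma7 had 14 and 16 vector counts against 34 and 28 under ADAR1 p150, which did not overlap. Its log2 fold change was 0.75 ± 0.35 (SE), with an adjusted p of 0.119 in edgeR's quasi-likelihood test.

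The genes that moved with 12-HETE had other values here. With ADAR1 p150 the log2 fold change was 0.14 (95% interval -0.56 to 0.84) for Psme3, 0.62 (-0.27 to 1.51) for Psmc4 and 0.32 (-0.37 to 1.01) for Psmd14. It was -0.35 (-1.19 to 0.50) for Psmd3, -0.65 (-1.52 to 0.22) for Psmd8 and 0.052 (-0.44 to 0.54) for Psmc3ip. Of these 6 intervals, those of Psmc4 and Psmd14 reach a 2-fold rise and those of Psmd3 and Psmd8 a 2-fold fall. The intervals of Psmc4 and Psmd8 also hold the values of these genes with 12-HETE, 1.14 and -1.41. The median over the 17 members was 0.13, beside 0.066 over all genes, and it was 0.30 over the core subunits and 0.063 over the regulatory subunits. Over all 17 it was -0.086 without vector replicate 1, -0.13 without ADAR1 p150 replicate 1, 0.33 without vector replicate 2 and 0.31 without ADAR1 p150 replicate 2, so its sign rests on single libraries. In 4 members (Psma7, Psmc1, Psmc4 and Psmd1) both ADAR1 p150 libraries were above both vector libraries, beside 33.7% of all genes, and in 3 (Psmd3, Psmd8 and Psme1) both were below, beside 26.3%.

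Whether the effect of ADAR1 p150 differed from that of 12-HETE was tested gene by gene. By edgeR's quasi-likelihood test 0 of the 17 members differed at an adjusted p under 0.05, beside 15.0% of all genes. At an unadjusted p under 0.05, 2 members passed, beside 27.6% of all genes, and DESeq2 had 0 at its unadjusted p, beside 15.3%. The 2 were Psmd3, where the log2 effect of ADAR1 p150 minus that of 12-HETE was -1.35 ± 0.55 (SE) with an adjusted p of 0.0956, and Psme3, where it was -1.12 ± 0.46 with an adjusted p of 0.1 in edgeR. Psme3 passed without vector replicate 1 (edgeR adjusted p of 0.0315) or without ADAR1 p150 replicate 1 (0.0474). So the rise of Psme3 with 12-HETE was not shown to be larger than its change with ADAR1 p150.

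The 2 control groups received neither 12-HETE nor ADAR1 p150, and the members lay lower in the vector libraries than in the vehicle libraries. Against vehicle, the vector libraries had a log2 fold change below 0 in 14 of the 17 members, with a median of -0.41 beside -0.0083 over all genes, and of -0.47 in the core and -0.44 in the regulatory particle. The median of all 17 rests on single libraries: it was -0.14 without vehicle replicate 5, -0.13 without vector replicate 1 and -0.64 without vector replicate 2. By edgeR's quasi-likelihood test 0 members passed at an adjusted p under 0.05, beside 0.116% of all genes. At an unadjusted p under 0.05 only Psmd1 passed, beside 11.5% of all genes, and DESeq2 had 0 at its unadjusted p, beside 3.36%. Psmd1, a scaffold subunit of the base, had 19 and 20 counts under vehicle against 8 and 9 in the vector libraries. The sample titles name no experiment or batch, so a batch and the kind of control cannot be told apart here.

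Some members overlap a gene on the other strand, and whether the counting used strand is not given in the sources used here. Without strand, reads from exon bases that both genes of such a pair share cannot be told apart. Of the 48 members, 13 shared part of their span with a counted gene that GENCODE M21 places on the opposite strand, and in 8 the exons overlapped. In 5 of these 8 the partner had more counts than the member. The widest gaps were those of the alpha subunit gene Psma4, with a mean of 6.5 counts beside 182 for AY074887, and of the activator gene Psme1, with 10.1 beside 139 for Emc9. Psmd1 had 19.5 beside 116 for Htr2b, a serotonin receptor gene nested on the other strand. The shared exon bases were 114 for Psma4, only 14 for Psme1 and 252 for Psmd1.

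Where both genes of an exon-overlapping pair were tested, most moved in the same direction under 12-HETE. The exception was Psmc3 at 0.51 on the log2 scale beside Slc39a13 at -0.23. Htr2b rose by 0.66 (edgeR adjusted p of 0.00243) beside 0.59 for Psmd1, and Emc9 fell by 0.39 (0.0416) beside -0.27 for Psme1. AY074887, whose partner Psma4 was not tested, rose by 0.83 (5.29e-06). With ADAR1 p150 the signs differed for Psmc3 (-0.27, Slc39a13 0.92) and Psmc3ip (0.052, Mlx -0.35). Whether shared reads played a part was not tested. With ADAR1 p150, Htr2b rose by 1.13 (edgeR adjusted p of 2.57e-06) while Psmd1 was at 0.65 (0.282). Of the 6 members that passed with 12-HETE, only Psmc3ip had such a partner: its exons share 385 bases with those of Mlx, which rose by 1.11 (edgeR adjusted p of 0.017). Mlx had a mean of 17.4 counts beside 49.5 for Psmc3ip, and its part in the value of Psmc3ip was not tested. For the other 4 pairs the mean counts were 24.6 for Psmb7 beside 19.8 for Nek6, 35.4 for Psmc3 beside 18.1 for Slc39a13, 4 for Psmd13 beside 24.6 for Sirt3, and 3.25 for Psme3ip1 beside 4.88 for Rspry1.

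**Figure D5:**
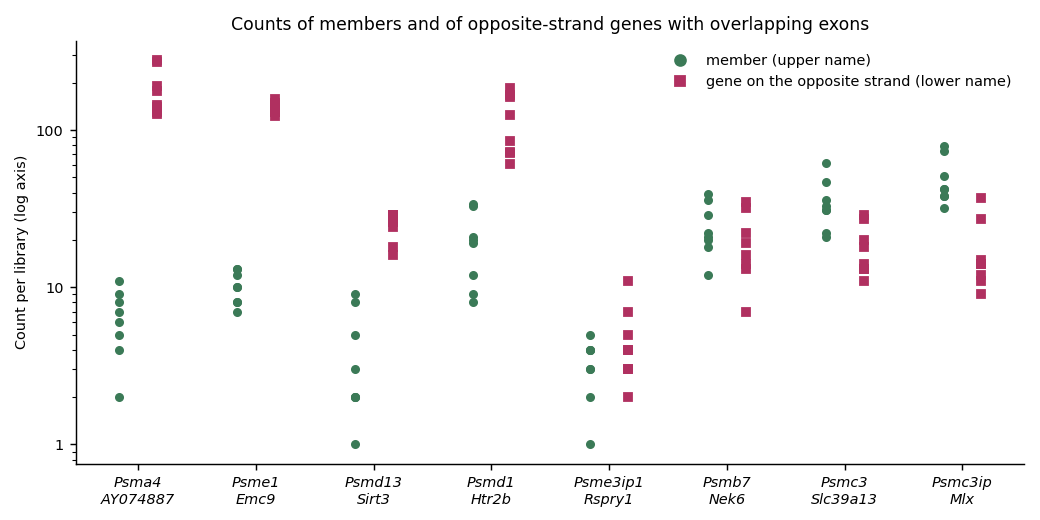
Counts per library (log axis) of the 8 members whose exons overlap those of a gene on the opposite strand (circles) and of that gene (squares), with 8 libraries each. For Psma4, Psme1, Psmd13 and Psmd1 every square lies above every circle, whereas for Psmc3ip the member has more counts than Mlx in every library.

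Psmd3, Psmc3ip and Psme3, which passed the adjusted p with 12-HETE, lie near each other on chromosome 11, between 98682554 and 101323537 of GRCm38, a stretch of 2.64 megabases. The other 42 tested genes of that stretch had a median log2 fold change of 0.15 under 12-HETE, beside 0.11 over chromosome 11. Of these 42, 14.3% were higher at the adjusted p, beside 18.2% of the tested genes of chromosome 11 and 15.1% of all genes. The stretch was bounded by members that had passed.

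Other genes of the pathway were taken from a list of 36 that act beside the subunits, of which 35 were in the table and 19 were tested. With 12-HETE, 4 of the 19 were higher at an adjusted p under 0.05 in edgeR's quasi-likelihood test and 0 lower, beside 15.1% and 14.2% of all genes. They were Usp14, the deubiquitinase that docks on the base (log2 fold change 1.01, adjusted p of 0.00181 in edgeR), the ubiquitin ligases Ube3a (1.10, 0.03) and Stub1 (0.78, 2.1e-05), and Uba1, the ubiquitin-activating enzyme (0.86, 0.0201). The median over the 19 was 0.37. The factors Nfe2l1 and Nfe2l2 were at -0.23 and 0.014 and did not pass.

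With ADAR1 p150, 2 of the 19 were higher and 1 lower, beside 14.5% and 11.1% of all genes. Adrm1, a ubiquitin receptor of the base, rose by 0.94 (edgeR adjusted p of 0.0249) and Stub1 by 0.47 (0.00752). Rad23b, which carries ubiquitin-tagged proteins to the proteasome, fell by 1.57 on the log2 scale (edgeR adjusted p of 0.00997), with 14 and 18 vector counts against 7 and 6 under ADAR1 p150. With 12-HETE its log2 fold change was 0.68 (0.134), and the difference between the effects passed (adjusted p of 0.00554 in edgeR's quasi-likelihood test).

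The interferon-inducible beta subunits, which replace their constitutive counterparts in the immunoproteasome, were near the floor. Psmb8 had 3 and 3 counts under vehicle and 0 or 1 in the other 6 libraries, and Psmb9 had 0 or 1 in all 8. Psmb10 had between 1 and 9 counts. None was tested, and a change in them was not detectable at this depth.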

How the data were processed

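The authors deposited raw counts per gene, without normalization, for 8 RNA-seq libraries of EO771 cells. According to the study's methods, prinseq removed duplicates, STAR placed the reads on GRCm38 and featureCounts counted fragments. The methods name Trizol and a directional kit, the labels a column kit and another library kit, and whether counting used strand is not given in the sources used here. Removing duplicates leaves fewer counts than reads and lowers abundant genes most. Totals were 1101767 to 1537037 per library, so floors of 3 counts correspond to 2.11 to 2.74 CPM and cover counting error only.

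A gene was tested where its mean over the libraries was at least 10 counts, which held for 6901 of 49997. All libraries were fitted together with TMM factors and a coefficient per group in edgeR 4.0.16 (limma 3.58.1, R 4.3.3), quasi-likelihood test, Benjamini-Hochberg adjustment over the 6901 genes. A call needed a 2-fold change and an adjusted p under 0.05. Intervals are at 95%. The procedure was tested on simulated data, but the outcome is not given here, so no error rate or power is stated for these counts. Summed CPM covers all members of a class, tested or not. The members and lists were chosen with earlier results of these data known. Counts per library are given for each member past the adjusted p in a treatment contrast or in the difference, filled to 12 members by mean count. Roles, the pathway list, the immunoproteasome subunits, opposite-strand genes, promoter motifs and cell type markers were fixed lists, and members named outside the rule are given as such or by counts.

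Positions and promoters are from RefSeq GRCm38.p6, strands and exon lengths from GENCODE M21. The 2 libraries of a group lay further apart than counting error gives (chi-square per gene of 1.36 to 1.68 on average) and were counted as separate samples. Alternatives were DESeq2 1.42.0, RLE factors, total counts, other minimum counts, fits of 4 libraries, a replicate block and leaving out each library. The crossed block and thinned libraries were chosen after seeing the data.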

Additional observations from a re-analysis of the deposited data

How the results depend on the processing

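Of the 5 members called with 12-HETE, DESeq2 called 1, total counts without TMM 2, 10 or more counts required in each library 2 (12 members left, without Psmc4 and Psmd8), libraries thinned to the smallest total 3, and the replicate block 4. Leaving out 1 library gave between 2 and 5, with 2 (Psmd8 and Psme3) without vehicle replicate 4 or 12-HETE replicate 4. Where a group was left with 1 library, it was assumed to vary like the others. Fits without a vector or ADAR1 p150 library kept all vehicle and 12-HETE libraries, so they nearly repeat the reported 12-HETE estimates. Psmc4 and Psmd8 had no test where 10 counts were required in each library, and that fit is counted below as not passed. Only Psme3 passed in all 17 fits, the reported one included, while Psmd8 passed in 14, Psmd14 in 13, Psmc4 in 12, Psmc3ip in 10 and Psmd3 in 9 at the adjusted p. With the 2-fold change required as well, Psmd3 passed in only 6 of the 17, Psmd14 in 12 and Psmc3ip in 0, while the other 3 kept their numbers. The log2 fold change of Psmd3 was 0.807 to 0.998, short of 2-fold, in the following settings. They were DESeq2, RLE factors, total counts, other minimum counts, fits of 4 libraries and the replicate block. Total counts lowered the 12-HETE medians to 0.31 over all members, 0.28 in the core and 0.31 in the regulatory particle. The cause was not tested where the construction of the setting does not show it. Leaving out 1 library gave medians of 0.32 to 0.65, 0.20 to 0.49 and 0.32 to 0.65 in that order for 12-HETE. For ADAR1 p150 they were -0.13 to 0.33, 0.15 to 0.70 and -0.16 to 0.34, and for vector against vehicle -0.64 to -0.13, -0.72 to -0.21 and -0.67 to -0.14. With no minimum count, which adds members with few counts, the median over all members was -0.20 for ADAR1 p150, and for vector against vehicle -0.24 over all members and -0.33 in the core. The count of members with a difference between the effects was 0 to 1 when 1 library was left out.

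The replicate numbers were not shown to pair the libraries. Over genes, deviations of same-numbered libraries correlated at -0.077 for vehicle and 12-HETE and at -0.11 for vector and ADAR1 p150. With the replicate block the 12-HETE medians were 0.50 over all members, 0.50 in the core and 0.50 in the regulatory particle, and with ADAR1 p150 0 members passed, as with the crossed pairing.

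Values near 0 changed sign without passing any test. Psmd2 with 12-HETE was at -0.021 with DESeq2, -0.017 with RLE factors, -0.19 with total counts, -0.0077 with a minimum in every library, -0.045 with no minimum, -0.019 when only 4 libraries were fitted and -0.015 under the replicate block, and -0.46 to 0.34 with 1 library left out. With ADAR1 p150, Psmc3ip was at -0.0082, -0.0067, -0.054 and -0.0028 with DESeq2, RLE factors, no minimum and 4 libraries, and Psmd2 at -0.00021 and -0.043 with DESeq2 and no minimum. With 1 library left out the ADAR1 p150 ranges that cross 0 were -0.12 to 0.20 for Psmc3ip, -0.086 to 0.67 for Psmc5, -0.16 to 1.06 for Psmd14, -0.28 to 0.73 for Psme3, -0.22 to 0.58 for Psmb7, -0.13 to 0.23 for Psmd2 and -0.79 to 0.31 for Psmd4. With 2 libraries per group and few counts per member, every 95% interval of a member's log2 fold change reached past a 2-fold change, across 0, or both.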
